A study of Oryza sativa with 16 samples.

Results

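Callus of the rice variety Nipponbare was set against root of the same variety, probe by probe, through the Nipponbare shoot RNA that was hybridized beside each of them. For every probe, the log2 ratio of root over shoot was subtracted from the log2 ratio of callus over shoot of the same array set and replicate, so that a value above 0 means a higher signal in callus than in root. The comparison used 8 of the 16 arrays of the series, 4 for callus and 4 for root, since each of the 2 replicates was hybridized to both array sets. All 83040 probes of the design other than controls were taken, and 82998 of them could be tested.

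Callus is a mass of dividing cells without organs, kept in this state by an auxin in the medium, whereas the root is a differentiated organ that takes up water and minerals. Genes of cell division and growth are known to be active in rice callus, and genes of transport, cell wall and defense in root. The callus came from the scutellum (the seed's absorbing organ) and was 28 days old according to the labels, grown on solid induction medium at 30°C with 24 h of light. The roots were 10 days old, from plants in hydroculture at 28°C with 16 h of light. The shoots were 10 days old by the labels and came from plants in soil in a greenhouse. The study's methods give an older age for them. Callus and root thus differed in age, medium, light and temperature as well as in tissue, and these cannot be told apart. RNA of several plants was pooled for each extract, and callus and root RNA were extracted with one kind of kit and shoot RNA with another. In bulk samples, fewer cells of a type and less RNA per cell cannot be told apart. The labels number the replicates but do not say that they came from separate cultures or plants, so the p-values measure the spread between these hybridizations, which may be technical.

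For callus and root alike, replicate 1 had the tissue in Cy3 and replicate 2 had it in Cy5. According to the labels, the shoot RNA on both callus replicates was extract 2, whereas root replicate 1 had shoot extract 1 and root replicate 2 had shoot extract 2. The shoot extract was therefore the same on both sides of the comparison only in replicate 2. Callus arrays and root arrays were scanned on different days, and scan and tissue cannot be told apart. Between 90.7 and 95.5% of the probes were well above background in the callus channel of a callus array, against 89.9 to 90.8% in the root channel of a root array. The median callus signal was 918 to 1030 and the median root signal 611 to 735. A signal is called well above background where the scanner software flagged it so.

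Of the probes tested, 7721 (9.3%) were higher in callus than in root and 7430 (8.95%) were lower, at an adjusted p under 0.05 with limma. In both directions together 15151 probes (18.3%) passed, and 24883 had an unadjusted p under 0.05. The median of the called probes was a log2 difference of 1.32 among those higher in callus and -1.76 among those lower, whereas the median over all probes was 0.05 in both replicates. The 2 replicates of the difference correlated with r = 0.828 across 82998 probes and with r = 0.912 across the 64485 probes (77.7%) that were well above background in both channels of the 4 arrays of their set. Probes are not independent samples, so these values only describe the scatter. The SD between the replicates was 0.44 over all probes and 0.31 over the brighter ones, on the log2 scale.

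The number of calls rested on having both replicates. It was 3759 higher and 4063 lower without callus replicate 1, 3224 and 4538 without callus replicate 2, 3052 and 4446 without root replicate 1, and 2981 and 3924 without root replicate 2. With 1 replicate of each tissue, where the spread was taken from the other samples, no probe passed in limma, whereas 14509 probes without replicate 1 and 14121 without replicate 2 had an unadjusted p under 0.05.

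**Figure D1:**
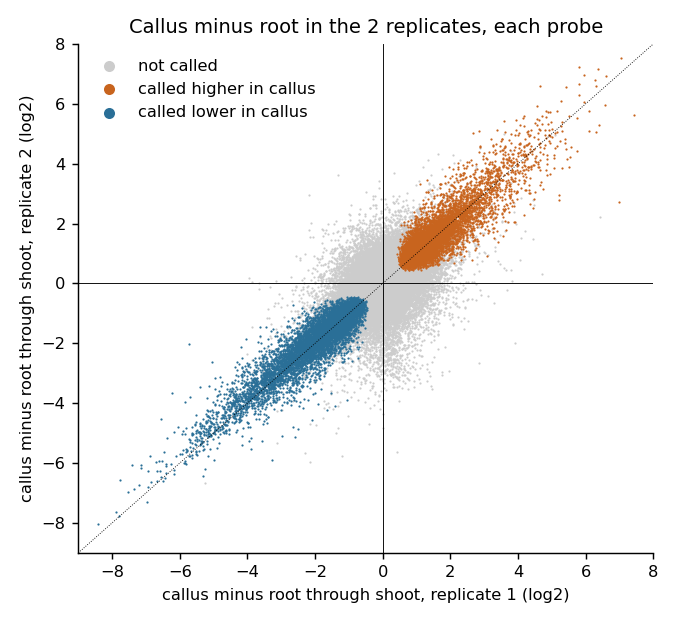
Callus minus root through shoot on the log2 scale, with replicate 1 on the x axis, replicate 2 on the y axis and 1 point per probe. Probes called higher in callus (7721) are orange, probes called lower (7430) blue and others grey, and the dotted line marks equal values. The blue cloud reaches beyond -8, whereas the orange one ends near 7.

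Among the called probes, more of the large differences through the shoot lay on the side of root. At a difference of at least 2-fold beside the adjusted p, 6032 probes (7.27%) were higher in callus and 6462 (7.79%) were lower, which is 1.07 lower for each higher one. At 4-fold the counts were 1587 higher and 3034 lower. At 8-fold they were 548 higher and 1292 lower, at 16-fold 188 and 471, and at 32-fold 44 and 148, or 3.36 lower for each higher probe. The excess of lower probes past 4-fold was also seen in each replicate alone, with no test: among the probes well above background, 1255 were at least 4-fold higher and 2752 lower in replicate 1, and 1412 higher and 2540 lower in replicate 2. Normexp background correction followed by loess gave 976 higher and 1799 lower at 4-fold, and the callus and root channels compared without the shoot gave 2578 and 4090. The growth of the excess with the fold was less stable. From 4- to 32-fold, the lower probes for each higher one went from 2.19 to 5.96 in replicate 1 alone. In replicate 2 alone they went from 1.8 to 2.13. At 2-fold there was no excess in replicate 2 alone (0.889), with normexp and loess (0.997) or from the channels (0.937).

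**Figure D2:**
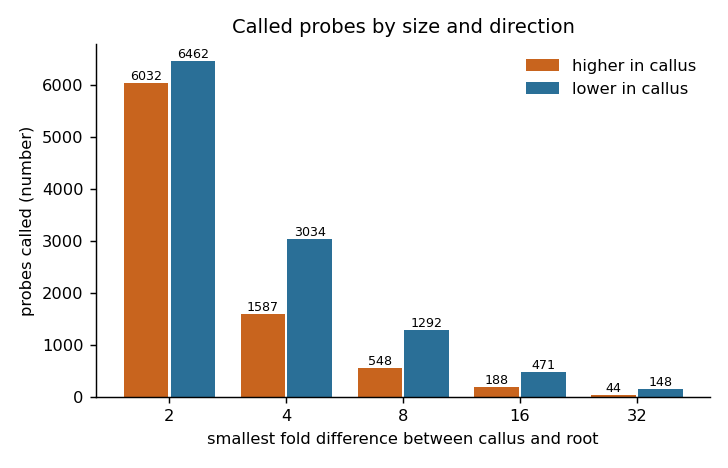
Number of probes (y axis) called higher in callus (orange) and lower in callus (blue) with a difference of at least the fold on the x axis. The bars are nearly even at 2-fold (6032 and 6462) and differ most, in proportion, at 32-fold (44 and 148).

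The probes with the largest differences through the shoot, among called probes whose signals were all well above background, were named by a fixed rule, 2 in each direction. Probes outside this filter reached larger differences between the tissue channels. Since nothing pairs the probe identifiers with genes, their functions are not given. All 4 were common probes of FL-cDNA loci, defined on TIGR Pseudomolecules Release 2, and each was the sole probe of its locus. None had a saturated spot. The sizes of the differences below moved with the processing, as given in the closing section. The callus over shoot, root over shoot and panicle over shoot values below are log2 ratios of the 2 replicates in order, and the SD is that between the 2 replicate differences.

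Probe R02-01025R_C, of a reverse-strand locus on chromosome 2, had callus over shoot values of 4.0 and 4.03, against root over shoot values of -2.59 and -2.90. Both callus values lay above both root values. The difference was 6.76 ± 0.24 (SD, n = 2), or 109-fold, with an adjusted p of 0.000236 in limma. In panicle the ratio to shoot was -2.62 and -2.63, so that among these samples the probe was far above shoot in callus alone.

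Probe R01-00892F_C, of a forward-strand locus on chromosome 1, gave 3.65 and 4.82 in callus and -2.70 and -2.35 in root. The difference was also 6.76, with a larger SD of 0.58 and an adjusted p of 0.000722 in limma (n = 2). Unlike the first probe it was above shoot in panicle too, at 1.16 and 1.83.

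Probe R03-00735F_C, of a forward-strand locus on chromosome 3, was lower in callus, at -5.71 and -5.20 over shoot, against 2.70 and 2.82 in root. The signals scaled to a common median were 192 and 233 in callus and 50068 and 60320 in root. The log2 difference was -8.22 ± 0.27 (SD, n = 2) with a limma adjusted p of 0.000236, and root was 298-fold higher than callus. Panicle resembled callus in this probe, with -4.82 and -4.66.

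Probe R12-00228R_C, of a reverse-strand locus on chromosome 12, gave -5.83 and -5.78 in callus and 1.96 and 1.98 in root. Its replicates were the closest of the 4, with a difference of -7.77 ± 0.02 (SD, n = 2) and a limma adjusted p of 0.000236. The scaled callus signals were low, at 108 and 102, against 21526 and 30606 in root. The small SD does not cover the processing, since normexp with loess gave -5.45. Panicle lay between callus and root, at -0.81 and -0.80.

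The study lists 3 of the clones on the arrays, each with its TIGR locus, among short clones from which an internal sequence that encodes a protein domain is missing. The domain given below is thus encoded by the locus and, as the study lists it, absent from the clone. The study proposes that such clones might have been rearranged in bacteria during cloning. Where each probe lies in the transcript was not analysed, so its signal is not taken as that of a transcript without the domain. Clone AK058489 (LOC_Os08g37370) lacks the sequence for a mitochondrial carrier domain, which is found in proteins that move metabolites across the inner mitochondrial membrane. Its probe had callus over shoot values of -1.68 and -1.69, against root over shoot values of 0.01 and -0.31. It fell by 1.53 on the log2 scale in callus relative to root (SE 0.22, adjusted p = 0.00463 with limma), which makes root 2.89-fold higher.

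Clone AK058349 (LOC_Os03g08500) lacks the sequence for an AP2 domain, a DNA-binding domain of plant transcription factors. Its probe gave 0.24 and 1.37 in callus and 0.99 and 0.75 in root, so that the replicates differed in sign (-0.75 and 0.62), and 4 of its spots in these channels were saturated. Clone AK059443 (LOC_Os04g42020) lacks the sequence for a B-box zinc finger domain, which occurs in regulators of the response to light. Its probe was well below shoot in every tissue, at -3.79 and -2.99 in callus, -3.54 and -3.33 in root and -3.25 and -2.95 in panicle. Neither probe was called between callus and root, with adjusted p-values of 0.943 and 0.952 in limma.

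**Figure D3:**
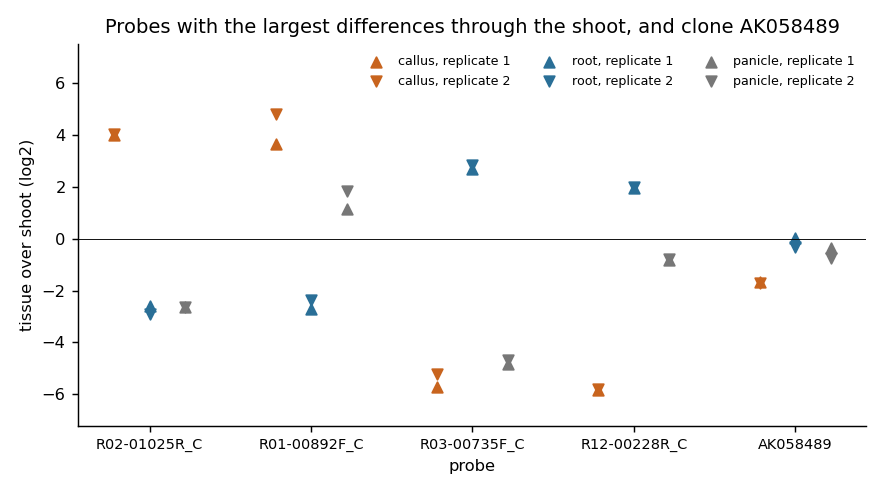
Log2 ratio of tissue over shoot (y axis) for the 4 probes with the largest differences through the shoot and for clone AK058489 (x axis), in callus (orange), root (blue) and panicle (grey). Upward triangles are replicate 1 and downward triangles replicate 2. For every probe shown, the callus values lie apart from the root values.

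The ratios to shoot of callus, root and panicle, which share the shoot, were set side by side for the called probes. The 7721 probes higher in callus had a median of 1.52 (quartiles 0.69 and 2.33) in callus over shoot and of -0.01 (quartiles -0.66 and 0.69) in root over shoot, with 0.37 in panicle over shoot. The order of callus and root was fixed by the call, so only their place relative to the shoot is described here. These probes were mostly above shoot in callus, and their median in root was near shoot. The 7430 probes lower in callus had medians of -0.58 in callus, 1.30 in root and 0.29 in panicle. Here root was above shoot and callus somewhat below it. Of the 3034 probes lower by at least 4-fold, 78.6% were more than 2-fold above shoot in root and 42.2% were more than 2-fold below shoot in callus. Of the 1587 probes higher by at least 4-fold, 86.5% were more than 2-fold above shoot in callus and 24.4% were more than 2-fold below shoot in root. Over all tested probes, 19.2% were more than 2-fold above shoot in callus and 14.3% more than 2-fold below it. In root these shares were 18.0% and 12.4%.

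The comparison through the shoot takes the shoot signal to be the same on the callus and the root arrays, and this was examined next. The shoot channels of a callus array and a root array of the same replicate correlated with r = 0.98 in replicate 1 and r = 0.972 in replicate 2 across 82998 probes. For a small set of probes, however, the shoot channel followed the tissue beside it. In 226 probes the shoot signal differed by at least 8-fold between callus and root arrays, in the same direction in both replicates. Of these, 131 were well above background in every channel of their callus and root arrays, and the others were not. Of the 226, the shoot was higher on the callus arrays in 68 and lower in 158. In all 68 the callus channel was also above the root channel in both replicates, and in all 158 it was also below. The same held for all 42 and all 89 of the probes well above background.

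The same was seen when the probes were grouped by the tissue channels of one replicate and the shoot was read from the other. For probes whose callus channel was more than 256-fold above the root channel in replicate 1, the shoot channel in replicate 2 was higher on the callus array by a median of 4.20 (27 probes, log2 scale). For those more than 256-fold below, it was lower on the callus array, with a median of -4.67 (46 probes). Between 16- and 64-fold the medians were 0.91 above (373 probes) and -1.18 below (747 probes). Within 2-fold the median was -0.08 (59198 probes). Grouping by replicate 2 and reading replicate 1, in which the dyes were the other way round, gave medians of 4.69 (20 probes) and -4.15 (52 probes) for the outermost groups. The shift appeared in both replicates, which differ in dye orientation and, by the labels, in the shoot extract on the root arrays. The cause of the shift was not tested.

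One probe of a forward-strand FL-cDNA locus on chromosome 8, chosen after its values were seen, is an example. Its scaled callus signal was 462963 and 232313 in the 2 replicates, against root signals of 41 and 102. The shoot signal was 15124 and 3140 on the callus arrays, against 46 and 43 on the root arrays. Neither the root signals nor the shoot signals on the root arrays were well above background, so that their ratios give only bounds. The probe was not called through the shoot, with a limma adjusted p of 0.0592. A probe of a forward-strand locus on chromosome 7, chosen in the same way, showed the reverse, with callus signals of 32 and 50 and root signals of 116757 and 166939. Its shoot signal was 36 and 19 on the callus arrays, against 8050 and 12057 on the root arrays. There the callus signals and the shoot signals on the callus arrays were not well above background.

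The difference through the shoot and that of the channels were then compared, with the probes chosen on either of them. Among the 131 probes at least 16-fold higher in callus through the shoot in both replicates, the median difference was 4.81 through the shoot and 5.76 between the channels, and it was smaller through the shoot in 121. Among the 364 probes at least 16-fold lower through the shoot, the medians were -4.82 through the shoot and -5.58 between the channels, and the difference was smaller through the shoot in 306. Chosen on the channels instead, 405 probes at least 16-fold higher had medians of 3.89 through the shoot and 5.14 between the channels, and 929 at least 16-fold lower had medians of -3.87 and -5.24. The relation did not hold for every probe. R03-00735F_C had -8.22 through the shoot and -8.02 between the channels. From the channels without the shoot, 12325 probes were called higher and 10864 lower.

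**Figure D4:**
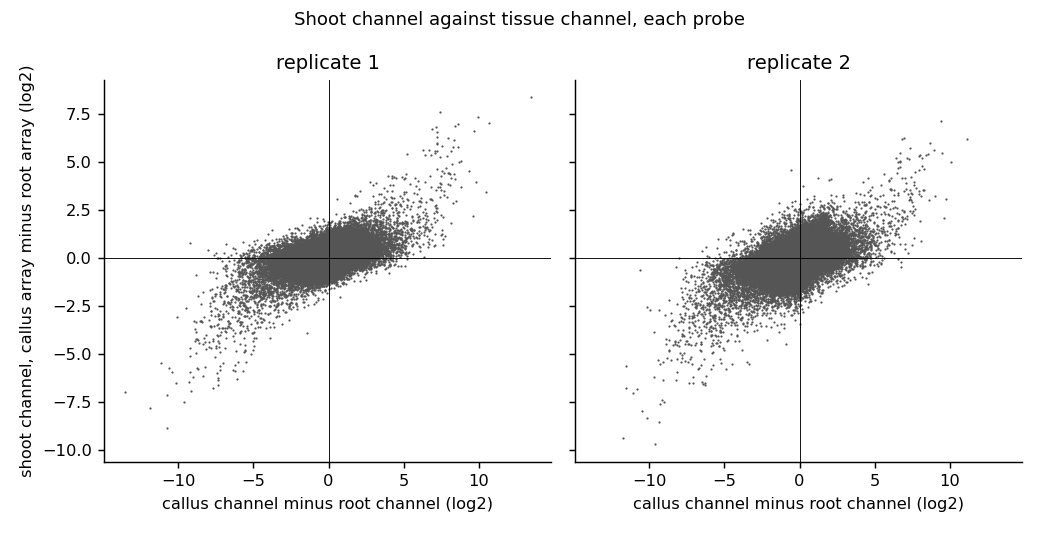
Shoot channel on the callus array minus shoot channel on the root array (y axis, log2) against callus channel minus root channel (x axis, log2), with 1 point per probe, in replicate 1 (left) and replicate 2 (right). If the shoot signal did not move with the tissue, the cloud would be flat, but at both ends of the x axis it bends away from 0 in the direction of the tissue, in both replicates.

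A probe that was not well above background in either replicate of one tissue gives only a bound. Of 83040 probes, 1423 (1.71%) were well above background in both callus channels and in neither root channel, and 388 (0.467%) the other way round. The bound was at least 2-fold for 391 of those seen in callus only, against 306 of those seen in root only. At 4-fold both groups had 174 probes, and at 8-fold there were 93 for callus and 110 for root. For each probe the bound set the mean log2 level of the brighter tissue against the lowest level that was well above background on each array of the other tissue, or against the probe's own level there if higher. The levels were taken after normalization between arrays. The callus arrays were brighter (the median signals are given above), and the part of this in the larger count for callus was not tested. CDS models made up 563 (39.6%) of the 1423 probes and 97 (25%) of the 388, beside 26.2% of all probes. Of the 563, however, only 57 had a bound of at least 2-fold and 21 were called, against 70 and 34 of the 97. In all, 173 of the 1423 probes were called higher in callus and 163 of the 388 lower. These probes were chosen by the tissue in which they were seen, and this choice favors a call in that direction. Their calls are therefore not compared with those of all tested probes.

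The share of called probes was next compared among the kinds of sequence from which the probes were designed. Of the 37416 tested probes of FL-cDNA loci, 4840 (12.9%) were higher in callus and 4762 (12.7%) were lower, above the shares of all probes. The 3'-end units (named END3TU in the annotation) had 12.6% higher and 13.4% lower. The ENDS models (named so in the annotation, on TIGR gene models) had 6.18% higher and 5.09% lower, and the CDS models, designed from predicted coding sequences, 3.68% higher and 2.96% lower. Within the FL-cDNA loci, the common probes had 15.3% higher and 15.2% lower, whereas the probes specific to 1 clone had 6.93% higher and 7.86% lower. With at least a 2-fold difference, 21.3% of the FL-cDNA locus probes and 5.23% of the CDS models were called in either direction, beside 15.1% of all probes.

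These kinds also differed in brightness. The FL-cDNA locus probes had a median scaled signal of 2256 and the 3'-end units one of 1468. The ENDS models (494) and the CDS models (339) were dimmer. Within the FL-cDNA loci, the common probes had a median signal of 2957 and the clone-specific probes one of 989. Over all probes in 5 groups of equal size by signal, 1.83% of the dimmest were higher in callus and 2.37% lower, against 15.7% and 13.7% of the brightest. The part of brightness in the difference between the kinds was not tested. The excess of lower probes at 4-fold was present in each kind, with 1095 higher and 1948 lower among FL-cDNA locus probes, 273 and 516 among 3'-end units, 144 and 297 among ENDS models, 65 and 240 among CDS models and 10 and 33 among FL-cDNA clones.

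The names of the FL-cDNA clones begin with a library number, and in the study's list of libraries one of them was made from calli. This allowed the probes specific to 1 clone to be described by the tissue in which the transcript had been cloned. Of all 4082 such probes, 6.93% were higher in callus and 7.86% lower, beside 9.3% and 8.95% of all probes. Of the 775 such probes of the calli library (J03), 68 (8.77%) were higher in callus than in root and 39 (5.03%) were lower. The order was the other way round for the green shoot library (J01), with 75 higher (5.78%) and 106 lower (8.17%) of 1298, and for the panicle library (J02), with 52 higher (5.2%) and 88 lower (8.8%) of 1000. Library 002, whose tissue is not given in the sources used here, had the same order as calli, with 36 higher and 27 lower of 497. The stressed shoot library (006) had 9 higher and 11 lower of 74, and library 001, also without a tissue here, 43 and 50 of 438. The median difference was 0.11 for the calli library, -0.08 for the green shoot library and -0.06 for the panicle library. These medians are small against the spread of single probes, since the quartiles of the calli library were -0.28 and 0.55.

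In each replicate alone the calli library had the highest median of the 3, with 0.16 and 0.08 for the calli library, -0.08 and -0.10 for green shoot and -0.02 and -0.09 for panicle. It also had the highest with normexp and loess (0.06, against -0.05 and -0.03) and from the channels without the shoot, where the medians of green shoot and panicle were -0.01 and -0.05 and that of calli 0.13. The FL-cDNA clone probes, which are on both array sets, had 20 of 129 higher and 15 lower for the calli library, 21 and 37 of 203 for green shoot and 23 and 37 of 194 for panicle. Over all 1028 FL-cDNA clone probes, 126 (12.3%) were higher and 160 (15.6%) lower. The 4 of these probes of the calli library that were called with at least a 4-fold difference were all lower in callus. The replicates of these bright probes were shifted against each other, with a median over all 1028 of -0.21 in replicate 1 and of 0.27 in replicate 2. In loci that had a clone-specific probe of the calli library and one of another library, both well above background, the calli probe was the higher of the pair in 25 of 41 loci against green shoot and in 16 of 23 loci against panicle. By 2-fold or more, however, the calli probe was above that of green shoot in 3 loci and below it in 5, and above that of panicle in 3 and below it in 1. The median difference within a pair was 0.13 and 0.14, and the replicates did not give it alike (0.03 and 0.14 against green shoot, -0.02 and 0.29 against panicle). No test was made of these lists.

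**Figure D5:**
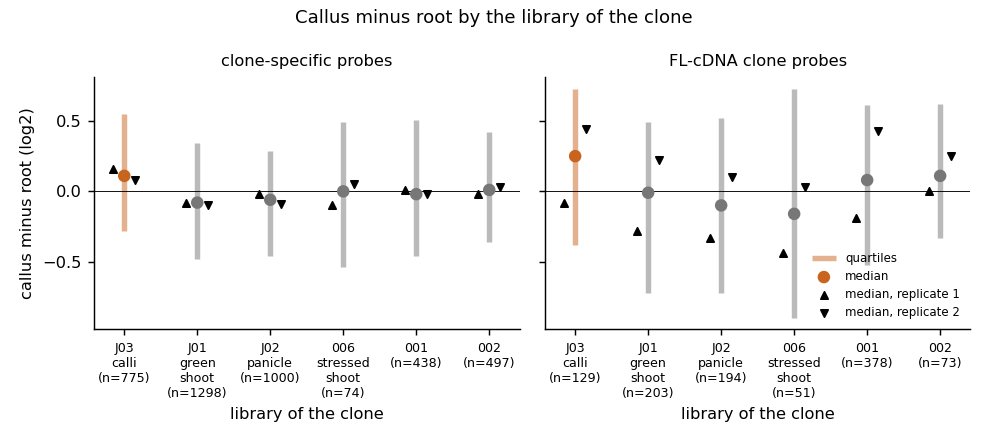
Callus minus root on the log2 scale (y axis) for clone-specific probes (left) and FL-cDNA clone probes (right), by the library of the clone (x axis, with the number of probes). Circles are medians, bars run between the quartiles, and triangles are the medians of replicate 1 (upward) and replicate 2 (downward). The calli library (orange) has the highest median in both panels, 0.11 and 0.25, and its quartiles overlap with those of every other library. In the right panel, library 002 was higher in replicate 1 (0.0, against -0.08 for calli). In replicate 2, library 001 was nearly equal (0.43, against 0.44 for calli).

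Several probes of one FL-cDNA locus mostly gave the same direction. In 4505 loci with 2 or more probes well above background, 1899 had at least 1 called probe. Every probe was called higher in 118 of them and lower in 194. In 852 loci some probes were called higher and none lower, and in 678 some were called lower and none higher. For 3854 of the 4204 called probes (91.7%), the mean of the other probes of the locus lay on the same side of 0, against 71.8% for uncalled probes. Beside probes called higher (median 1.31) the other probes had a median of 0.93, and beside probes called lower (median -1.72) they had -1.36.

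In 57 loci (3% of those with a call) probes were called in both directions. The one with the widest range among loci of 3 or more probes, chosen after the values were seen, lay on the reverse strand of chromosome 1 and had 5 probes. Its common probe was higher in callus, with 1.08 and 1.12 in the 2 replicates, whereas an E5 probe of the same locus was lower, with -3.91 and -3.82, and another was lower with -1.69 and -1.33. The other two E5 probes were dim and were not called (0.38 and 0.01). The common probe was below shoot in both tissues, at -1.25 in callus and -2.35 in root. Whether these probes lie in different transcripts was not analysed here.

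The locus numbers in the identifiers follow the order along each strand of a chromosome, which allowed called loci to be placed. Of 18682 FL-cDNA loci, 3329 (17.8%) had probes called higher only and 3186 (17.1%) lower only. The shares were alike on all 12 chromosomes, from 16.3 to 19.9% higher and from 14.1 to 18.7% lower. The locus after a locus called higher was itself called higher in 18.6% of 3016 pairs, beside 17.7% over all pairs. The locus after one called lower was itself lower in 19.8% of 2891 pairs, beside 17.1% over all pairs. After a locus called in the opposite direction, 16.6% were higher and 16.0% lower. These differences were not tested. Runs of 4 or more neighbors called in one direction numbered 12 for higher and 17 for lower, and the longest were 7 loci higher on the reverse strand of chromosome 5 and 8 loci lower on the reverse strand of chromosome 2. How many such runs the overall shares alone would give was not tested. A locus counted as called by 1 or more probes, so its median could differ in sign. A lower run on the forward strand of chromosome 1 held a locus with a median of 0.48.

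The run with the lowest median, chosen after the values were seen, lay on the forward strand of chromosome 8 and held 5 neighboring loci. Their median log2 differences, in order, were -3.38, -5.02, -4.45, -0.55 and -4.39, and in the 4 strongly changed loci the replicates differed by less than 0.5. In root these loci were above shoot by 2.09, 2.09, 0.72, 0.56 and 5.22 on the log2 scale, whereas in callus the values were -1.29, -2.93, -3.74, -0.95 and 0.83. Whether the sequences of these neighbors are alike, so that 1 transcript could bind several of the probes, was not analysed here. Likewise, the probe sequences were not used.

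The 1028 clone probes on both array sets gave the error between arrays with the same extracts and dye orientation. These probes are bright, with a median scaled signal of 37633, so the error of dimmer probes is not covered. The difference on array set 1 and that on array set 2 correlated with r = 0.987 in replicate 1 (1027 probes) and r = 0.969 in replicate 2 (1017 probes), with an SD between the sets of 0.11 and 0.19. Between the replicates, the same probes had r = 0.891, an SD of 0.34 and a median difference of -0.45. The spread between replicates thus exceeded that between the 2 arrays hybridized with the same extracts. The replicates also differ in dye orientation, so extract and dye cannot be told apart in their spread.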

How the data were processed

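The authors hybridized tissue RNA and shoot RNA to 2-color Agilent arrays, and the deposited intensity values are processed signals of Cy3 and Cy5 that Feature Extraction 8.1 (per the file headers and methods; 7.5 per the labels) had corrected for background and normalized between dyes by LOWESS within each array, not between arrays. The deposited log10 ratios of tissue over shoot were checked to equal the scanner values within 0.01 on all 44290 spots of each array. Deposited flags of 0 or 1 mark outlier, saturated and well-above-background spots. Samples were grouped by tissue from the labels. Outlier spots were left out, log2(tissue / shoot) was fitted with limma 3.58.1 in R 4.3.3 over the 8 hybridizations of the 4 comparisons (callus, root, panicle and IR64 shoot, 2 replicates each), which share 1 estimate of the spread, and the coefficient callus minus root was tested with eBayes and Benjamini-Hochberg adjustment over both array sets, threshold 0.05. Probes on both sets were averaged. Scaled signals are processed signals set to a common median per channel. The number of arrays limits the precision. The fit was tested on simulated data. The named probes are the 2 largest rises and 2 largest falls among called probes with the same sign in both replicates, well above background in both channels of the 4 arrays, 1 per locus, and 3 clones that the study lists with a missing domain. The comparison, lists and tests were chosen with earlier results of these data known. Lists of genes by function and tissue markers were not used, since the reference table matched no probe identifier, so the tissue labels were not checked on markers. Alternatives were normexp (offset 50) with loess, centring, the deposited ratios, keeping outlier spots, only bright probes, only callus and root arrays, a replicate block, an intensity trend, channels without the shoot and leaving out replicates.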

Additional observations from a re-analysis of the deposited data

Results flagged for a closer look

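Of the 4 callus arrays, that of array set 1 in replicate 2 had 805 probes marked as outliers by the scanner software, against 56 to 146 on the others, which was past Dixon's critical value. A total of 14 sets of 4 arrays were examined this way, and chance alone flags about 1 in 20. With the outlier spots kept, 7668 probes were higher in callus than in root and 7422 lower.

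The control sequences were not part of the comparison. Of those well above background on nearly all arrays, the sequence named CAB differed between callus and root by -0.66 ± 0.02 (SD, n = 2) on the log2 scale, with -5.18 in callus over shoot and -4.52 in root over shoot. The sequence named SIG differed by -0.31 ± 0.01 and the sequence named COR by 0.31 ± 0.06. The files explain none of these names, and the differences were not tested.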

How the results depend on the processing

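The 4 named probes of FL-cDNA loci and clone AK058489 kept their direction under all 15 alternatives, and their call in 13. The 2 that left 1 replicate of each tissue gave adjusted p-values of up to 0.0599 for the 4 probes and of up to 0.112 for the clone. The sizes of the differences of the 4 probes moved with the processing. With normexp and loess they were 5.34 for R02-01025R_C, 5.73 for R01-00892F_C, -6.57 for R03-00735F_C and -5.45 for R12-00228R_C. From the channels without the shoot they were 7.47, 8.1, -8.02 and -7.94 in the same order. Probes called higher in callus numbered 12080 with normexp and loess and 12325 from the channels without the shoot. Leaving out replicates gave from 0 to 3759 higher and from 0 to 4538 lower. The samples share only a replicate number, which is also the dye orientation, and the replicate differences of callus and root correlated with r = 0.48; with the replicate block 9925 probes were higher and 9248 lower. The following was added after seeing the data. At 4-fold or more, normexp and loess gave 976 higher and 1799 lower, the channels 2578 higher, and leaving out replicates from 0 to 1467 higher and from 0 to 2979 lower. With 4-fold in place of 2-fold, the share called was 9.32% of 3'-end units, 1.4% of CDS models, 3.08% of ENDS models, 4.18% of FL-cDNA clones and 8.13% of FL-cDNA locus probes. From the channels, 8.56% of CDS models and 15% of ENDS models were called. Normexp and loess gave 90.2% for the agreement within a locus. The cause of these shifts was not tested. Dim probes have the largest spread between replicates (median SD 0.44 in the dimmest of 5 groups, against 0.14 in the fourth).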
